A study of Mus musculus with 10 samples.

Results

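The Ifit and Ifitm genes are interferon-stimulated genes of the antiviral response, and 8 of them were followed through obstructed mouse kidneys. The members were chosen by gene symbol: Ifit1, Ifit1bl1, Ifit2, Ifit3 and Ifit3b of the Ifit family, and Ifitm1, Ifitm2 and Ifitm3 of the Ifitm family, 8 of the 54532 genes in the deposited table. Male C57BL/6 mice had unilateral ureteral obstruction (UUO), a ligation model of obstructive nephropathy, at 8 weeks of age, and their kidneys were collected 14 days after it. Control mice (CTL) received PBS, and treated mice received dimethyl malonate (DMM), an inhibitor of succinate dehydrogenase, at 40 mg/kg by intraperitoneal injection every other day. Bulk RNA-seq gave a library for each kidney, with 5 CTL and 5 DMM libraries, so that every kidney was obstructed and no unobstructed kidney was analysed here. Total counts ran from 16457495 to 18078777 per CTL library and from 15722527 to 19475833 per DMM library.

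A few libraries stood apart. CTL3 and DMM1 had a weight of 0 in the group means that the authors deposited, although they are labelled like the other libraries of their groups. DMM1 correlated more closely with CTL1, CTL2, CTL4 and CTL5 (Pearson r of log2 CPM, counts scaled to a common library size with TMM factors, across genes from 0.996 to 0.997) than with any DMM library (at most 0.993), while CTL3 had its highest r with DMM2 and CTL1, at 0.996 with both. At 330.0 CPM of Ifit1 and 531 CPM of Ifit3, CTL3 lay within the range of the other CTL kidneys, while its proximal tubule markers, at a sum of 10106 CPM, lay above theirs. Whether the labels of these 2 libraries are right was not tested, and all values over 10 libraries rest on the labels as deposited. Because of the weights, DMM was compared with CTL over all 10 libraries and again over the 8 libraries that remained without CTL3 and DMM1, a set that leaves out 1 of the 5 replicates of each group. The 8 libraries are part of the 10, so that neither comparison is an independent check of the other. DMM4 also stood apart, with an r of at most 0.977 with any other library, against at least 0.985 between all other pairs; genes are not independent replicates.

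IFIT proteins are cytoplasmic RNA-binding proteins built from tetratricopeptide repeats. IFIT1 recognises RNA whose cap lacks the methyl marks of host mRNA and keeps it from being translated, and in human cells IFIT1, IFIT2 and IFIT3 form shared complexes. IFITM proteins are small membrane proteins that hinder the fusion of enveloped viruses with the membranes of the cell, and many cell types make some IFITM protein without stimulation. Interferons induce both families, and the interferon-stimulated response element (ISRE) is the promoter sequence known for this induction.

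Ifit transcripts were abundant in the CTL kidneys and in DMM1, and scarce in DMM2, DMM3, DMM4 and DMM5. The 5 Ifit genes together took between 0.129% and 0.214% of all counts in the CTL libraries and 0.162% in DMM1. In DMM2, DMM3, DMM4 and DMM5 they took 0.0179%, 0.0183%, 0.0142% and 0.0144%. All 5 Ifit genes fell over the 8 libraries, by factors between 6.26 and 13.7. In bulk tissue, fewer cells that express a gene and less of its RNA per cell cannot be told apart.

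Ifit1, the cap-sensing member, was at 464, 303, 330.0, 511 and 454 CPM in CTL1 to CTL5 and at 366, 30.6, 28.2, 47.0 and 20.8 CPM in DMM1 to DMM5. DMM1 lay inside the CTL range, and the other 4 DMM kidneys lay far below every CTL kidney. Over the 8 libraries its mean was 433 ± 90.4 CPM in CTL (SD, n = 4) and 31.6 ± 11.1 CPM in DMM (SD, n = 4). The log2 fold change of DMM over CTL was -3.77 (SE 0.28), a level 13.7-fold lower, with an adjusted p of 0.000161 by edgeR's quasi-likelihood test. With CTL3 and DMM1 included, it was -2.07 (SE 0.76), with an edgeR adjusted p of 0.388. Among all tested genes ordered from the most negative log2 fold change, Ifit1 was at place 8 of 16550 over the 8 libraries and at place 17 of 16505 over all 10.

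Ifit2, which has been linked to cell death, was at 453, 348, 343, 482 and 530.0 CPM in CTL1 to CTL5 and at 448, 62.6, 67.7, 72.0 and 54.1 CPM in DMM1 to DMM5. Its DMM kidneys other than DMM1 lay close to each other, and none of them reached the lowest CTL kidney. The means over the 8 libraries were 453 ± 77.2 CPM in CTL and 64.1 ± 7.70 CPM in DMM (SD, n = 4 each), a level 7.08-fold lower. The edgeR log2 fold change was -2.82 (SE 0.17) with an adjusted p of 7.45e-05, and over all 10 libraries it was -1.61 (SE 0.58) with an adjusted p of 0.388.

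Ifit3 had the highest CPM of the family in every CTL kidney, with 792, 469.9, 531, 815 and 732 CPM in CTL1 to CTL5 and 584, 62.8, 66.8, 33.6 and 56.2 CPM in DMM1 to DMM5. Again DMM1 lay among the CTL kidneys, while DMM4 was the lowest of all. Its near copy Ifit3b was at 219, 118, 148, 229 and 204 CPM in CTL1 to CTL5 and at 169.8, 18.3, 20.1, 12.1 and 14.04 CPM in DMM1 to DMM5. The order of the 10 libraries from highest to lowest was the same for both genes, with DMM4 lowest. Over the 8 libraries the log2 fold change was -3.68 (SE 0.27) for Ifit3 and -3.58 (SE 0.26) for Ifit3b, with edgeR adjusted p values of 0.000155 and 0.000146. With all 10 libraries the values were -2.06 (SE 0.73) and -1.97 (SE 0.72), with edgeR adjusted p values of 0.387 and 0.388.

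Ifit1bl1, named for its likeness to Ifit1, was the scarcest member, at 13.6, 10.1, 9.67, 15.1 and 20.5 CPM in CTL1 to CTL5 and 11.9, 2.65, 2.32, 2.30 and 2.19 CPM in DMM1 to DMM5. The DMM kidneys other than DMM1 differed little from each other and were all under the lowest CTL kidney. Its level was 6.26-fold lower in DMM over the 8 libraries, with a log2 fold change of -2.65 (SE 0.24) and an edgeR adjusted p of 0.000422. It was -1.69 (SE 0.50) over all 10, with an edgeR adjusted p of 0.378.

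Of the Ifitm genes, Ifitm3 fell over the 8 libraries, whereas Ifitm1 and Ifitm2 did not pass the test over either set of libraries. The 3 genes together took between 0.0480% and 0.0715% of counts in the CTL libraries, 0.0550% in DMM1, and 0.0222%, 0.0199%, 0.00788% and 0.0196% in DMM2 to DMM5.

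Ifitm3, which acts in late endosomes and lysosomes, was at 519, 355, 378, 555 and 526 CPM in CTL1 to CTL5 and at 422, 137, 114, 48.7 and 113 CPM in DMM1 to DMM5. DMM1 lay within the CTL values, and DMM4 was lowest by a wide margin. The means over the 8 libraries were 489 ± 90.6 CPM in CTL and 103 ± 37.9 CPM in DMM (SD, n = 4 each), a level 4.75-fold lower. The edgeR log2 fold change was -2.25 (SE 0.31) with an adjusted p of 0.00445, and over all 10 libraries it was -1.48 (SE 0.47) with an adjusted p of 0.385.

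Ifitm2, a close relative of Ifitm3, was at 77.1, 92.1, 77.7, 98.6 and 93.5 CPM in CTL1 to CTL5 and at 93.9, 67.9, 69.8, 29.7 and 68.5 CPM in DMM1 to DMM5. DMM1 was among the highest kidneys, DMM2, DMM3 and DMM5 lay slightly under the CTL kidneys, and DMM4 alone was far lower. The edgeR log2 fold change was -0.62 (SE 0.25) with an adjusted p of 0.197 over the 8 libraries, and -0.41 (SE 0.24) with an adjusted p of 0.533 over all 10. Without DMM4, the value over the remaining 7 of the 8 libraries was -0.39, with an edgeR adjusted p of 0.00843 but a fold change under 1.5.

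Ifitm1, the member found mainly at the plasma membrane, was at 23.3, 20.4, 24.9, 33.2 and 19.5 CPM in CTL1 to CTL5 and at 19.9, 14.6, 17.5, 14.4 and 18.6 CPM in DMM1 to DMM5. The highest DMM kidney, DMM1, overlapped the lowest CTL kidney, and the remaining DMM kidneys lay just below the CTL range. The edgeR log2 fold change was -0.57 (SE 0.19) with an adjusted p of 0.126 over the 8 libraries, and -0.51 (SE 0.17) with an adjusted p of 0.385 over all 10. Whether the changes of Ifitm3 and of the other Ifitm genes differ was not tested.

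**Figure D1:**
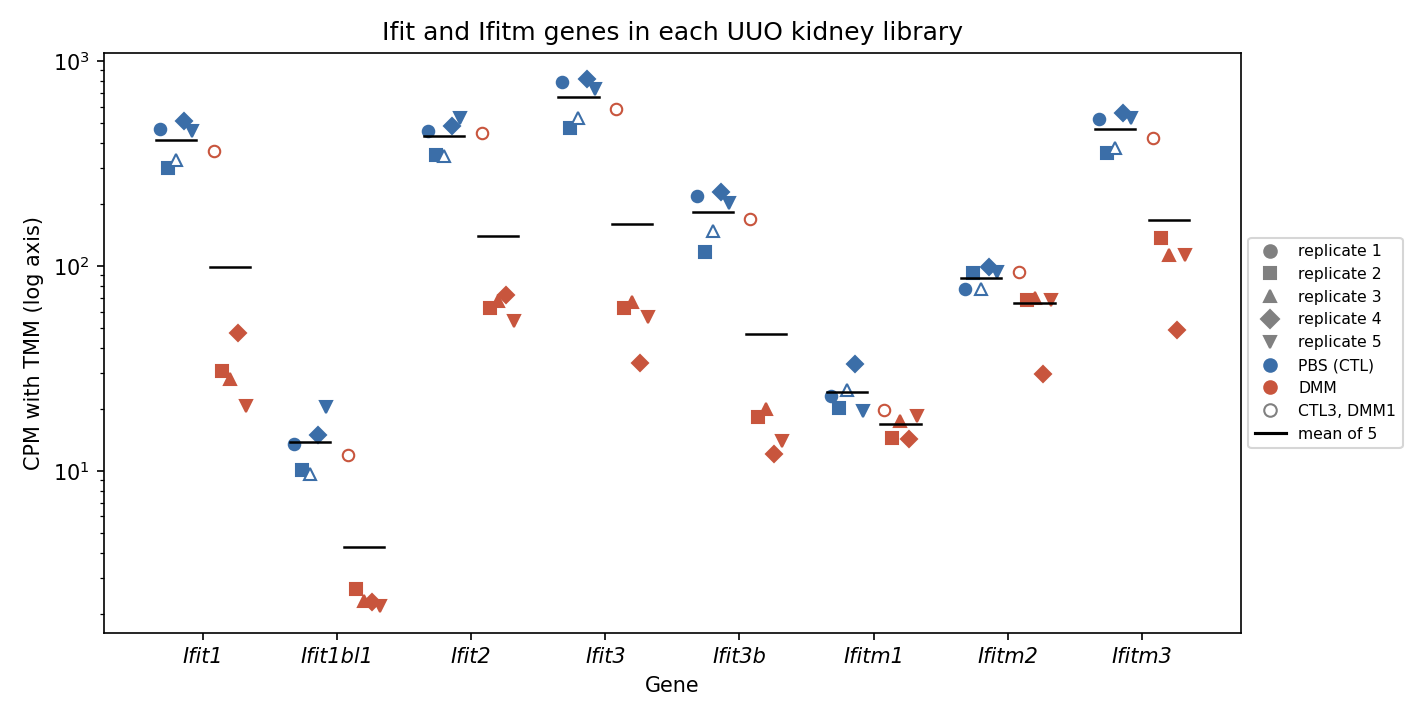
CPM with TMM of the 8 members (x axis) on a log axis (y axis) in each library, CTL in blue and DMM in red, with a marker shape for each replicate number, open markers for CTL3 and DMM1 and a bar at the mean of 5 libraries. For Ifit1, DMM1 is at 366 CPM among the CTL kidneys and the other DMM kidneys are between 20.8 and 47.0 CPM, while for Ifitm1 all DMM kidneys are between 14.4 and 19.9 CPM.

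Over the 8 libraries, 6 of 8 members were called lower in DMM, with the call set at an adjusted p under 0.05 together with more than 1.5-fold change, against 3.56% of the 16550 tested genes. The members' median log2 fold change was -2.73, and that of all tested genes was 0.02. Because the members were chosen with earlier results of these data known, their contrast with all genes is a description and no test. Genes called in all numbered 590 lower and 452 higher, or 700 lower and 276 higher when counts were scaled by library size alone, and 6 members were called lower under either scaling. Over all 10 libraries edgeR called 0 of 8 members, against 0.00% of the 16505 tested genes, and DESeq2 also called 0 members among 33 lower and 12 higher genes. At an unadjusted p under 0.05 with the same fold change, 6 of 8 members were lower over all 10, against 4.11% of tested genes; 678 genes were lower and 315 higher by that rule. The members' median over all 10 was -1.65, beside 0.02 for all tested genes. Leaving out DMM1 alone was enough for the calls to appear: over the 9 libraries left, 6 of 8 members were called lower, against 2.60% of 16760 tested genes, and the log2 fold change of Ifit1 was -3.71. Leaving out any other single library of the 10 gave 0 called members. No direction of a member changed under any scaling, filter, tool or left-out library tried.

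Levels of the members could be set against each other per kilobase (kb) of the deposited gene length. Ifitm3 led in all 10 libraries. In the CTL kidneys its mean level was 689 CPM per kb, followed by Ifit3 at 383, Ifit1 at 155, Ifitm2 at 134, Ifit2 at 109.8, Ifit3b at 91.8, Ifitm1 at 22.2 and Ifit1bl1 at 6.06 CPM per kb. Ifit1 and Ifitm2 changed places between CTL kidneys, since Ifitm2 was above Ifit1 in CTL2 only, and this order was shared by the other 4. Among 16505 tested genes, mean levels per kb in CTL placed Ifitm3 at 28, Ifit3 at 54, Ifit1 at 188 and Ifitm2 at 222. Over the 4 DMM kidneys of the 8 libraries the order was another, with Ifitm3 at 152, Ifitm2 at 90.0, Ifit3 at 31.4, Ifit2 at 16.3, Ifitm1 at 14.9, Ifit1 at 11.9, Ifit3b at 8.06 and Ifit1bl1 at 1.04 CPM per kb. Ifitm2 stood above Ifit3 in each of these 4 kidneys and below it in every CTL kidney and in DMM1. After Ifit3 the order varied among the 4 kidneys: Ifit2 came next in DMM2, DMM3 and DMM4 and Ifitm1 in DMM5, and Ifit1 was above Ifitm1 in DMM4 only. By level per kb in DMM over the 8 libraries, Ifitm3 was at place 199 and Ifitm2 at place 422 of 16550 tested genes, while Ifit1 was at place 4875.

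The make-up of each family shifted with these levels. Ifitm3 made up 84.6%, 76.7%, 79.8%, 81.9% and 82.8% of the summed Ifitm level per kb in CTL1 to CTL5 and 79.4%, 63.3%, 57.8%, 55.1% and 57.8% in DMM1 to DMM5. DMM1 resembled the CTL kidneys, and in the other DMM kidneys a larger share belonged to Ifitm2. Ifitm2 held between 13.0% and 20.6% in CTL, 18.3% in DMM1 and between 32.5% and 36.7% in DMM2 to DMM5. Within the Ifit family, Ifit3 made up between 50.2% and 52.8% of the summed level per kb in CTL, 49.5% in DMM1, 48.8%, 49.6% and 52.1% in DMM2, DMM3 and DMM5, and 30.9% in DMM4. The share of Ifit3 thus stayed near the CTL range in all but DMM4. Ifit1 held between 20.3% and 21.3% in CTL and 20.3% in DMM1, but 15.6%, 13.7% and 12.7% in DMM2, DMM3 and DMM5 and 28.4% in DMM4. Ifit2 held between 13.4% and 16.6% in CTL and 16.9% in DMM1, and a larger share of between 21.6% and 29.4% in DMM2 to DMM5. These shares are descriptions and were not tested.

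**Figure D2:**
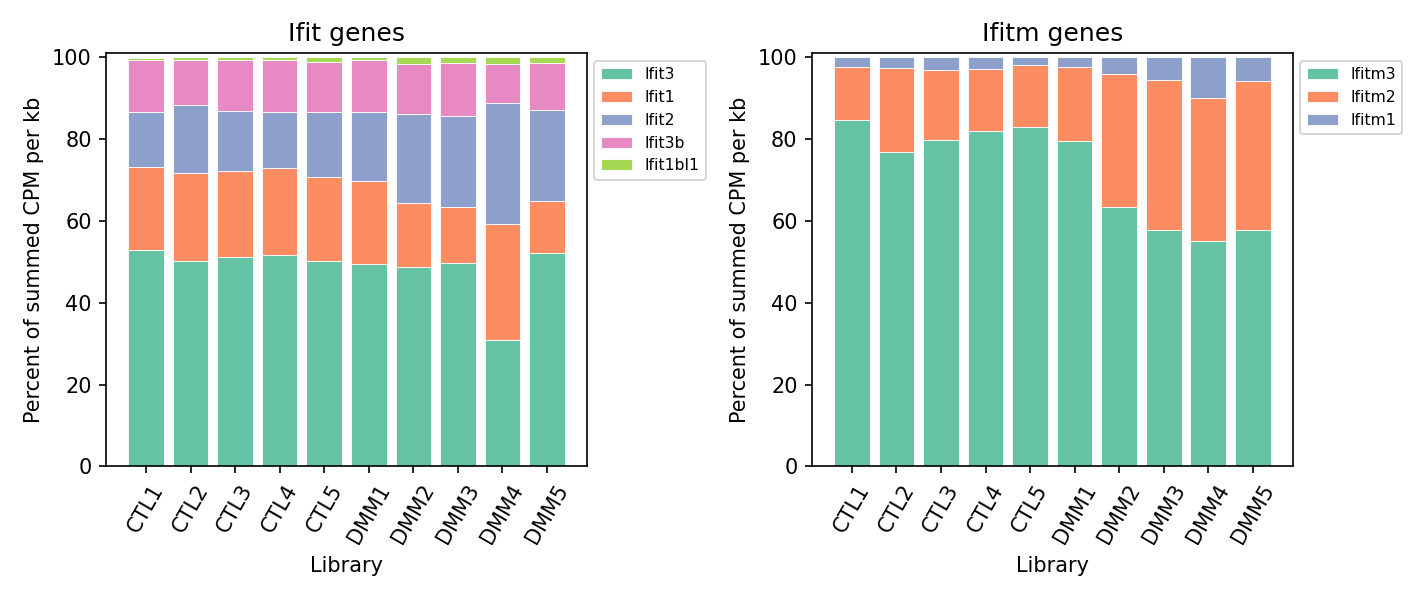
Share of each gene (colours) in the summed CPM per kb of its family (y axis, percent) in each library (x axis), with the Ifit genes on the left and the Ifitm genes on the right. Ifitm3 held between 76.7% and 84.6% in the CTL kidneys and 55.1% in DMM4, and Ifit3 held 30.9% in DMM4.

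DMM4 departed from DMM2, DMM3 and DMM5 by gene length and base composition. Across tested genes the median log2 difference of DMM4 from the mean of these 3 libraries was -0.56 for genes up to 1000 bp, -0.74 from 1000 to 2000 bp, -0.35 from 2000 to 4000 bp and 0.52 above 6000 bp, where no member lies. By GC content of the longest transcript it was 0.67 up to 42%, 0.39 from 42 to 46%, 0.10 from 46 to 50%, -0.26 from 50 to 54% and -0.65 above 54%. The members did not all lie near the medians of their classes. The difference was -1.21 for Ifitm2 (655 bp, 54.4% GC), -1.31 for Ifitm3 (678 bp, 51.8% GC), -0.22 for Ifitm1 (1094 bp, 50.7% GC), -0.88 for Ifit3 (1745 bp, 47.5% GC) and -0.51 for Ifit3b (2000 bp, 45.8% GC). Ifit1 (2656 bp, 43.3% GC) was at 0.84, above the medians of both of its classes, Ifit2 (3927 bp, 42.04% GC) at 0.23 and Ifit1bl1 (2275 bp, 42.95% GC) at -0.05. The part of length and GC content in the members' values in DMM4 was not tested. Without DMM4, the log2 fold change over 7 libraries was -4.03 for Ifit1, -3.50 for Ifit3 and -2.01 for Ifitm3.

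Several members share sequence with relatives, so that reads could be assigned to either copy. Of the distinct stretches of 50 bases in the Ifit3 transcript, 51.2% also occur in Ifit3b, and 44.5% of those of Ifit3b occur in Ifit3. At 100 bases the shares were 31.7% and 27.4%. Counts of these 2 genes are therefore uncertain one against the other. Ifit3b nonetheless took a like share of their joint counts in most kidneys, with 21.6%, 20.03%, 21.8%, 22.0% and 21.8% in CTL1 to CTL5 and 22.5%, 22.6%, 23.1%, 26.5% and 19.98% in DMM1 to DMM5. DMM4 had the highest share and DMM5 the lowest. When both genes were summed and tested as 1 gene, the joint log2 fold change came to -3.66 over the 8 libraries and to -2.04 over all 10. Ifit2 shared no stretch of 50 bases with any other gene, Ifit1 shared 7.06% with Ifit1bl2, and Ifit1bl1 shared 6.36% with Ifit1bl2. Ifitm2 shared 48.5% with other genes, among them 36.1% with Gm45717, a transcript of the same strand that overlaps it. Ifitm3 shared 10.02% and Ifitm1 5.02%, mostly with other Ifitm genes and their processed copies. Because Ifitm2 is short and shares much of its sequence, its counts are the least certain of the Ifitm members.

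The table held 5 further genes whose symbols begin with Ifit or Ifitm. Ifitm6, which is found in myeloid cells, was at 1.75, 1.77, 2.47, 3.25 and 2.88 CPM in CTL1 to CTL5 and at 1.79, 0.819, 0.453, 0.604 and 1.09 CPM in DMM1 to DMM5. It followed the members, with DMM1 among the CTL kidneys and the rest below them, and its log2 fold change over the 8 libraries was -1.69 (SE 0.37) with an edgeR adjusted p of 0.0289. Over all 10 it was -1.34 (SE 0.37), with an edgeR adjusted p of 0.378. Ifit1bl2 had between 1.65 and 4.42 CPM in CTL and between 0.630 and 2.59 CPM in DMM, and did not pass over the 8 libraries (log2 fold change -1.17, SE 0.40, edgeR adjusted p of 0.125). Ifitm10, a distant relative, had over the same libraries a log2 fold change of 0.08 (SE 0.35) and an edgeR adjusted p of 0.926. Ifitm5, known from bone, had at most 11 counts in any library and Ifitm7 at most 4, and neither was tested.

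All 5 Ifit members lie within 99316 bp of chromosome 19, and the Ifitm members within 55934 bp of chromosome 7 (mm10). From the centromere outward, the chromosome 19 cluster holds Ifit2 (34550694 to 34576419, + strand), Ifit3 (34583531 to 34588731, +), Ifit1bl1 (34592888 to 34601968, -), Ifit3b (34607970 to 34613401, +), Ifit1bl2 and Ifit1 (34640871 to 34650009, +). On chromosome 7, Ifitm2 (140954837 to 140955987, -), Ifitm1 (140967221 to 140969825, +) and Ifitm3 (141009586 to 141010770, -) lie in this order. No flanking gene was called lower. Beside the Ifit cluster, Lipa, a lysosomal lipase gene 23220 bp away, had a log2 fold change of 0.17 (SE 0.10, edgeR adjusted p of 0.383) over the 8 libraries, and the noncoding Gm26902 behind it -0.42 (SE 0.46, adjusted p of 0.639). On the far side Slc16a12, a transporter gene 18394 bp away, and Pank1, of coenzyme A synthesis, rose over the 8 libraries, by 0.69 (SE 0.13) and 1.35 (SE 0.21) on the log2 scale with edgeR adjusted p values of 0.0178 and 0.0076. Beside the Ifitm cluster, which runs over 68967 bp from Ifitm5 to Ifitm6, Pgghg, 1294 bp from Ifitm5, was at -0.11 (SE 0.18, edgeR adjusted p of 0.759), B4galnt4 at -0.65 (SE 0.50, adjusted p of 0.501) and Pkp3 at -0.03 (SE 0.15, adjusted p of 0.941), while Nlrp6 rose by 0.99 (SE 0.23, adjusted p of 0.0367). Over all 10 libraries none of these 8 neighbours was called by edgeR.

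**Figure D3:**
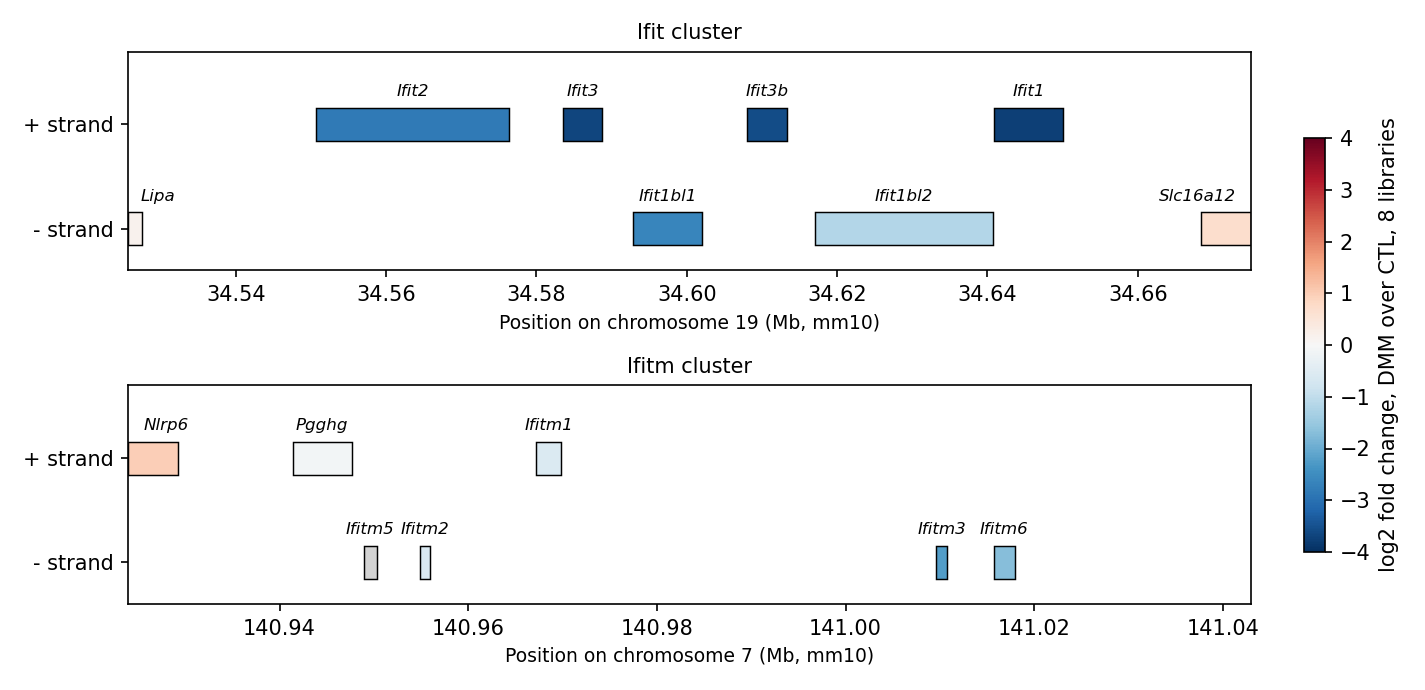
Map of the Ifit cluster (top) and the Ifitm cluster (bottom) with position in Mb on the x axis, strand on the y axis and each gene as a box to scale, coloured by its log2 fold change of DMM over CTL over the 8 libraries, grey where not tested. The Ifit genes range from -3.77 for Ifit1 to -1.17 for Ifit1bl2, and the flanking Lipa is at 0.17.

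All 8 members were compared in their promoters, taken from RefSeq (GRCm38.p6) as 300 bases from 250 before to 50 after a transcription start. Each had an entry. The ISRE core, searched on both strands as GAAANNGAAA (TTTCNNTTTC on the other strand), occurs in 3.44% of the 32851 promoters of the table. It was found in the promoters of 6 of 8 members: Ifit1, Ifit1bl1, Ifit3, Ifit3b, Ifitm2 and Ifitm3. This is a count of members, some of which (Ifit1bl1 and Ifit2) have another promoter, whereas the 3.44% is a share of promoters. The windows of Ifit2 and Ifitm1 did not hold these letters. Such a match is a description of letters and no measure of binding.

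Ifit1, Ifit3 and Ifit3b, the members with the most negative log2 fold changes over the 8 libraries, each hold a pair of cores upstream of the start, shown here on the strand of the gene with the cores in capitals. The stretches lie at chr19:34640775-34640823 for Ifit1, chr19:34583363-34583426 for Ifit3 and chr19:34607759-34607822 for Ifit3b, all on the + strand of GRCm38.p6.
Ifit1: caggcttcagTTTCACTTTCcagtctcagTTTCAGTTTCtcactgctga
Ifit3: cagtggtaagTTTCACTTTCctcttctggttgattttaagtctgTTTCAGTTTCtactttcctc
Ifit3b: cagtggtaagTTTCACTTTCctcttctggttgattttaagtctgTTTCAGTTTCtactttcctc
The same pair of core sequences occurs in all 3, with 9 bases between the cores in Ifit1 and 24 in Ifit3 and Ifit3b. The stretches of Ifit3 and Ifit3b are identical over 64 bases, and the scarce Ifit1bl2 reads the same cores as Ifit1 from the opposite strand, since their starts face each other.

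Ifitm3, Ifitm2 and Ifit1bl1, the other members with a core, are shown for comparison and had smaller log2 fold changes; Ifitm1 and Ifit2 held no core and have no stretch to show. With 2 cores, Ifit1, Ifit3, Ifit3b and Ifitm3 had log2 fold changes over the 8 libraries of -3.77, -3.68, -3.58 and -2.25. With 1 core in a promoter, Ifit1bl1 was at -2.65 and Ifitm2 at -0.62. Without a core, Ifit2 was at -2.82 and Ifitm1 at -0.57. Whether the fold changes go with the number of cores was not tested. The stretches lie at chr7:141010716-141010742 for Ifitm3, chr7:140955988-140956017 for Ifitm2 and chr19:34602053-34602082 for Ifit1bl1, all on the - strand of GRCm38.p6.
Ifitm3: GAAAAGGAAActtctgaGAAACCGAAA
Ifitm2: ccaccaacagGAAAAGGAAAttgctagaga
Ifit1bl1: actctgtaggTTTCATTTTCtgtaggttgg
Ifitm3, which fell, and Ifitm2, which did not pass the test, hold the identical core GAAAAGGAAA, and Ifitm3 has another core 7 bases further on. In Ifitm3 both cores lie just after the transcription start, from 3 to 29, and in Ifitm2 the core lies before it, from -46 to -37. Another promoter of Ifit1bl1 holds the same core from -23 to -14.

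Genes that act upstream of the members in the interferon response were followed by lists. Of all 16550 genes tested over the 8 libraries, 590 (3.56%) were called lower and 452 higher. Of 20 interferon ligand genes, 17 had 0 counts in all 10 libraries, Ifnb1 among them. A count of 0 allows up to 3 counts, or between 0.154 and 0.191 CPM by library, here without TMM factors. Ifng had 4, 6, 7, 6 and 7 counts in CTL1 to CTL5 and 5, 4, 3, 0 and 0 counts in DMM1 to DMM5, Ifnk 7 and Ifna7 2 counts in all, and no ligand was tested. Of 6 receptor genes, 0 were called over the 8 libraries, with a median log2 fold change of -0.18; Ifngr1 was at -0.31, Ifngr2 at -0.02 and Ifnar1 at 0.06. Of 15 signaling and transcription factor genes, 8 were lower and 0 higher, with a median of -0.65. Irf7, the factor that amplifies the interferon response, had a log2 fold change of -3.61 (SE 0.38, edgeR adjusted p of 0.00119), whereas Jak1 was at 0.07 and Stat3 at -0.01. Of 9 feedback inhibitor genes 3 were lower, with a median of -0.30; Usp18, which restrains the receptor, was at -3.41 (SE 0.22, edgeR adjusted p of 0.000108), Socs3 at -0.11 and Ptpn11 at 0.13.

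Sensor and effector genes were counted in the same way over the 8 libraries, where 3.56% of all 16550 tested genes were called lower. Of 15 nucleic acid sensor genes 9 were lower and 0 higher, with a median log2 fold change of -0.94; Trim25 was at -0.94 and Ddx58, the RIG-I gene, at -1.49, and Eif2ak2, the PKR gene, at -1.31 did not pass (SE 0.36, edgeR adjusted p of 0.0618). Of 32 other antiviral effector genes 30 were lower and 0 higher, with a median of -2.57, close to the members' -2.73; Bst2 was at -3.14, Ifi27l2a at -2.73 and the ubiquitin-like Isg15 at -4.10. Of 13 tested genes whose products work with or on IFIT and IFITM proteins, such as the cap methyltransferases, 0 were called, with a median of 0.11; Nedd4, the ubiquitin ligase of IFITM3, was at 0.14, Eif3c at 0.28 and Vcp at 0.26. Over all 10 libraries, edgeR called no gene of these lists. The median log2 fold change of the 32 other antiviral effectors was then -1.56, beside -1.65 for the members. That of the sensors was -0.69 and that of the signaling and transcription factors -0.47. Irf7 was at -2.28, Usp18 at -1.86, Isg15 at -2.08 and Bst2 at -1.99 over all 10.

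The genes whose log2 CPM ran most like the mean of the Ifit members over the 10 libraries were Oasl1 (Pearson r 0.999), Ube2l6, Xaf1, Tor3a and Oasl2 (r 0.996). For the Ifitm members they were Mx2 (r 0.991), Shisa5, Ogfr, Trafd1 and Nod2 (r 0.987). These values describe libraries that fall apart into low and high ones, so that they are given without a test. Between members, r ran from 0.965 to 0.997 within the Ifit family, and from 0.639 to 0.859 within the Ifitm family. Ifitm3 had an r between 0.903 and 0.981 with the Ifit genes, and Ifitm2 between 0.590 and 0.767.

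Cell type markers moved beside the members in part. By the call at an adjusted p, 590 of all 16550 tested genes (3.56%) were lower and 452 higher over the 8 libraries. The 5 general leukocyte markers summed to 675, 621, 576, 661 and 741 CPM in CTL1 to CTL5 and 599, 435, 323, 446 and 325 CPM in DMM1 to DMM5, led by Laptm5, and 3 of 5 were lower over the 8 libraries. Like the members, they were low in DMM2 to DMM5 and not in DMM1, with a median log2 fold change of -0.80. The 12 macrophage and monocyte markers, led by Lyz2, summed to between 1982 and 2712 CPM in CTL and to 2350.0, 1680.1, 1350.5, 1146 and 1381 CPM in DMM1 to DMM5, with 3 of 12 lower and a median of -0.80. The 9 T cell markers, led by Cd4, summed to between 49.9 and 86.2 CPM in CTL and to 55.9, 47.1, 18.9, 23.4 and 24.9 CPM in DMM1 to DMM5, with 1 of 9 lower and a median of -1.19. Proximal tubule markers went the other way, with 3 of 9 higher and a median of 1.44 over the 8 libraries, against 0 called and a median of 0.71 over all 10, and sums of 4002, 4014, 10106, 1573 and 2995 CPM in CTL1 to CTL5 and 3021, 8175, 7064, 5541 and 10284 CPM in DMM1 to DMM5. Of the remaining lists, loop and distal tubule had 3 of 6 higher (median 1.08, and 0.51 over all 10), fibroblast and pericyte 1 of 7 lower and conventional dendritic cell 1 of 6 lower, and the podocyte, endothelial, neutrophil, plasmacytoid dendritic cell, NK cell and B cell lists had 0 called. Red cell markers, led by Hbb-bs, also had 0 of 5 called, yet summed to 136, 228, 230.1, 157 and 152 CPM in CTL1 to CTL5 and to 288, 216, 593, 788 and 276 CPM in DMM1 to DMM5. On the log2 scale their median rise came to 1.78 (8 libraries) and 1.58 (all 10), and in both sets 5 of 5 were higher at an unadjusted p under 0.05 and a fold above 1.5. Among all 16550 genes tested over the 8 libraries, 1198 were lower and 1067 higher by this unadjusted rule. Of the markers, 4 of 5 general leukocyte, 7 of 12 macrophage and monocyte and 8 of 9 T cell genes were lower. By contrast, 7 of 9 proximal tubule and 4 of 6 loop and distal tubule markers were higher. Also lower were 3 of 7 fibroblast and pericyte, 3 of 6 conventional dendritic cell, 1 of 6 NK cell and 1 of 5 B cell markers, and 0 of the podocyte, endothelial, neutrophil and plasmacytoid dendritic cell markers moved. With all 10 libraries the same rule gave 3 of 5 general leukocyte, 6 of 12 macrophage and monocyte and 6 of 9 T cell markers lower. It also gave 2 of 6 NK cell and 1 of 6 conventional dendritic cell markers lower, and 2 of 9 proximal tubule markers higher. Among all 16505 tested genes, 678 (4.11%) were lower and 315 higher by this rule over all 10. The most abundant gene of the plasmacytoid dendritic cell list was Klk1, which kidney tubules also make. No marker was at 0 in all libraries, edgeR called none over all 10, and the part of cell composition in the members' change was not tested.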

How the data were processed

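Reads had been aligned by the authors to mm10, with HISAT2 2.0.5 per the submitters' processing notes, and deposited raw read counts per gene, which every test used. The deposited FPKM values were not used for tests. The deposited group means, a signal of counts divided by size factors, served only to find which libraries entered them: weights fitted to 28001 genes gave CTL3 and DMM1 a weight of 0. Gene length in base pairs was taken as deposited by the authors. The authors' comparison columns hold a log2 fold change, a p-value and an adjusted p-value and were not used. The counting tool, annotation release and strand setting are not given in the sources used here, so that reads of overlapping genes may be shared. Per-sample columns left unmapped numbered 0.

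Counts were filtered by filterByExpr, scaled by TMM and tested by the quasi-likelihood F test of edgeR 4.0.16 in R 4.3.3, with Benjamini-Hochberg adjustment over all tested genes. The call took an adjusted p under 0.05 together with more than 1.5-fold change. Each SE was derived as the absolute log2 fold change divided by the square root of the F statistic, and is not an output of the fit. CPM values carry TMM factors from all 10 libraries, apart from the bounds given for ligands with 0 counts and the r between whole libraries. The log2 CPM for correlations of genes and of deviations from group means had a prior count of 2. For the r between whole libraries, CPM was scaled by library size alone and 1 was added before the log2. DESeq2 1.42.0, scaling by RLE or by library size alone, other thresholds and low-count filters, the replicate number as a block and each library left out were alternatives. The steps were tested on simulated counts, and the outcome is not reported here. No molecular identifiers are described, so that reads are not independent molecules and bounds cover counting error only.

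Members and lists were chosen with earlier results of these data known. Most named genes were the 8 members, other Ifit and Ifitm genes, the 3 tested genes of each pathway list with the highest mean CPM per kb, the 2 nearest tested genes on each side of the clusters, and the 5 genes most like each family's mean. Of marker lists, the most abundant gene was named for some, and of the untested ligands, Ifnb1 and those with any counts. Shared stretches were counted in GENCODE M21 transcripts, and 54409 of 54532 gene IDs were found in that release. The description of DMM4 by length and GC content was added after the data were seen. Values of 1 gene of the pathway lists and of 1 searched motif are not reported here, though list counts and medians include that gene.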

Additional observations from a re-analysis of the deposited data

Results flagged for a closer look

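Among the 16 groups of 5 samples formed by the 8 members in CTL and DMM, 6 held a sample whose gap to its nearest neighbour, divided by the range of the group on the log2 CPM scale, passed Dixon's critical value of 0.71. Chance flags about 1 in 20 groups. In 5 of the 6, DMM1 was the high sample of the DMM group: the ratio was 0.716 for Ifit1, 0.865 for Ifit2, 0.759 for Ifit3, 0.808 for Ifit3b and 0.890 for Ifit1bl1. These groups share their libraries and some of their reads, so that they are not separate observations. For Ifitm2 in DMM, DMM4 was the low sample, with a ratio of 0.719. No CTL group passed.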

How the results depend on the processing

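Over all 10 libraries, 0 members and 0 genes were called under RLE size factors, library size alone, both other filters, a stricter adjusted p, no fold minimum and the replicate block. The block moved the log2 fold change over all 10 from -2.07 to -3.12 for Ifit1, from -2.06 to -2.99 for Ifit3 and from -1.97 to -2.86 for Ifit3b. DESeq2 called 33 genes lower and 12 higher, and the unadjusted rule 678 lower and 315 higher with 6 members lower. The 8 libraries gave 6 members among 590 lower and 452 higher genes. Leaving out 1 library in turn gave from 0 to 6 members, from 0 to 436 lower and from 0 to 50 higher genes, with the highest values without DMM1; the cause was not tested.

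Over the 8 libraries, 6 members were called lower in every setting but the unadjusted rule, which gave 7, and the replicate block, which gave 0. DESeq2 called 910 genes lower and 749 higher, library size alone 276 higher, an adjusted p under 0.01 gave 219 lower and 73 higher, and the unadjusted rule 1198 lower and 1067 higher. Leaving out 1 library gave from 276 to 1281 lower genes and from 131 to 1129 higher, lowest without CTL5 and highest without DMM4. Library size alone moved the median log2 fold change of all genes by -0.114, less than the change of any member. Only 3 replicate numbers have both groups among these 8. With the replicate block 0 genes were called lower and 0 higher, and the log2 fold change of Ifit1 was -3.73 with an edgeR adjusted p of 0.0535, in a range from 3.79e-41 to 0.0535 over its settings. Same-numbered libraries correlated in their deviations from the group means with r from -0.223 to 0.341, and 1 of 5 CTL libraries correlated best with its own number. These values cannot tell whether same-numbered libraries share more than a number, and pairing was not tested.

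For single members over the 8 libraries, 107 of the other values kept the side of the threshold and 6, all with the replicate block, did not; over all 10, 125 kept it and 12 passed, without DMM1 or over the 8 libraries. Without DMM1, the mean of the DMM kidneys went from 98.4 to 31.6 CPM for Ifit1 and from 161 to 54.9 CPM for Ifit3. The ligands, Ifitm5 and Ifitm7 had few counts or none. Ifng, with 4, 6, 7, 6 and 7 counts in CTL1 to CTL5, and Ifitm5, with 11 counts in CTL4, were detected there at a low level. In libraries without a count of a gene, a low level and absence cannot be told apart at this depth.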
